A study of Mus musculus with 18 samples.

Results

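Immediate early genes are examined here across whole lung RNA of 18 libraries. The list holds 36 genes, many of them known to be transcribed within minutes of a stimulus. Members were taken from the deposited fragment table by gene symbol. All 36 were found among 23351 features, and 35 had enough fragments to be tested, with Egr4 left out. Male C57BL/6 mice of 3 genotypes were used: wild type, β-arrestin 1 -/- and mice labelled β-arrestin 2 -/-. Arrestins of this kind switch off activated G protein-coupled receptors and couple them to kinases. Mice aged 8 to 12 weeks were housed for 4 weeks in normoxia (labelled oxygen pressure about 150 mmHg) or in hypobaric hypoxia matching 18000 feet (about 70 mmHg), and the libraries carry an age label of 12 to 16 weeks. Each of the 6 groups had 3 libraries, numbered 0 to 2. Whether those of a group stem from separate animals is not stated by the labels, so the p-values below measure the spread between libraries, which may be technical.

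Immediate early genes need no new protein for their induction. Growth factor, calcium, cAMP and stress signals reach them through mitogen-activated protein kinases, serum response factor with its ternary complex partners, and CREB. Their products are mostly transcription factors, such as the FOS and JUN subunits of AP-1, the EGR zinc finger proteins and the NR4A orphan nuclear receptors, together with feedback proteins that shut the same signals down. In lung they are known to respond to stretch, shear stress and injury, and their mRNAs are short lived.

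Promoters of 6 members are shown because these genes were called higher in hypoxia and together hold the elements known to bind CREB, EGR proteins and serum response factor. Each sequence is the 250 bases before the RefSeq transcription start on GRCm38.p6, read 5′ to 3′ on the gene's strand. Capitals mark matches on either strand to the cAMP response element TGACGTCA, to its core, to the EGR element GCGNGGGCG or to the CArG box of serum response factor. The core reads TGACG and was searched on both strands, as were the others.
Fos, chr12:85473640-85473889 (+): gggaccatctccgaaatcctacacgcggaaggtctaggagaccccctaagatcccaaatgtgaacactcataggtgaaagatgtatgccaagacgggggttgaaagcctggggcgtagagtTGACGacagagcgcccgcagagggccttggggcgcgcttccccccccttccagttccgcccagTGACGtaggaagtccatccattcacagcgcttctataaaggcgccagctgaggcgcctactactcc
Junb, chr8:84978749-84978998 (-): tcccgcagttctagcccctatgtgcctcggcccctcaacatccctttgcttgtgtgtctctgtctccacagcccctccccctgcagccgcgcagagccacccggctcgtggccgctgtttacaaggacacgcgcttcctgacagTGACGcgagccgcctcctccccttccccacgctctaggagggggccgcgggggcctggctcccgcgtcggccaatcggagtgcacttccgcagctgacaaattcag
Nr4a1, chr15:101266596-101266845 (+): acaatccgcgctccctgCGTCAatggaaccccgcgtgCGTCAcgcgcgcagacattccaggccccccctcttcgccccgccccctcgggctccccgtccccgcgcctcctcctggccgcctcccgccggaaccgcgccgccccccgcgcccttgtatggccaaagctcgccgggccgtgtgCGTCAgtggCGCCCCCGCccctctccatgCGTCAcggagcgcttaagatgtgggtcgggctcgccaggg
Btg2, chr1:134079156-134079405 (-): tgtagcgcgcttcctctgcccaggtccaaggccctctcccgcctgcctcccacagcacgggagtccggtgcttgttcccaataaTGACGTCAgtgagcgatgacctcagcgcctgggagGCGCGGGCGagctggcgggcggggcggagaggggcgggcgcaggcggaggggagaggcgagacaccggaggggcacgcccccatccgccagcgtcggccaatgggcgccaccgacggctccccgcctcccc
Zfp36, chr7:28379229-28379478 (-): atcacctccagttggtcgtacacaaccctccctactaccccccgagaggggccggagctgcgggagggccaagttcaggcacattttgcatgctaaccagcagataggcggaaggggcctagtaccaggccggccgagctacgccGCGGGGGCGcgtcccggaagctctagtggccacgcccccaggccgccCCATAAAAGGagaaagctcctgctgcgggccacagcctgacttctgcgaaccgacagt
Dusp1, chr17:26508473-26508722 (-): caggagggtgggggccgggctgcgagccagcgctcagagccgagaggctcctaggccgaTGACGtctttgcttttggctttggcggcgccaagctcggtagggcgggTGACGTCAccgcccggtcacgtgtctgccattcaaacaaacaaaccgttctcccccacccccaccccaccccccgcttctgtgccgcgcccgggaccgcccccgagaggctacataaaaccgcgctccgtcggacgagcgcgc
The RefSeq promoter table held 28 of the 36 members, and Fosl1, Egr1, Egr3, Ier2, Klf10, Myc, Sik1 and Cyr61 were not matched. An EGR element was present in 10 of 28 member promoters (35.7%), against 4.65% of 27025 promoters of the same length. The core TGACG, which also lies within each full element, was in 14 of 28 (50%), against 17.9%. Both Btg2 and Dusp1 held the full element TGACGTCA, which 1.62% of all promoters held. A CArG box was found in Zfp36 and in Dusp5, or 7.14% of members against 1.4% of all promoters. The AP-1 element TGANTCA was in 0 of 28 and in 6.87% of all promoters. Only the first window of each gene was searched, and Egr2, Maff and Csrnp1 had 5, 3 and 4 windows. The matches describe the letters of that first window and no more.

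The genotype labels were checked first. Arrb1 (mm10 chr7:99535486-99606771), the gene of β-arrestin 1, stood at 474, 464 and 478 CPM (fragment counts scaled to the library total by the TMM method) in wild type normoxia and at 87.5, 118 and 107 in β-arrestin 1 -/- normoxia (log2 change -2.18 ± 0.12 SE, edgeR adjusted p 4.01e-08). Arrb2 (chr11:70432580-70440828) was not called lower where the label reads β-arrestin 2 -/-. In normoxia it had 46.5, 38.9 and 36.6 CPM against 31.5, 30.2 and 35.1 in wild type normoxia (edgeR adjusted p 0.256), and in hypoxia 30.7, 37.8 and 34.6 against 33.5, 40.2 and 43.3 (-0.18 ± 0.20, adjusted p 0.821). These levels go against that label, although fragments summed over a gene leave unknown which exons they cover, and these libraries are called labelled throughout. Arrb1 was lower in them than in wild type normoxia, at 262, 287 and 319 CPM (log2 change -0.70 ± 0.12, edgeR adjusted p 0.00435), but not called in hypoxia (-0.02 ± 0.12, 0.986). Library totals ran from 16806806 to 25980876 fragments. Summed CPM of 8 defining lung genes was between 12096.5 and 19318 in every library. One library stood apart for the immediate early genes: wild type hypoxia replicate 2 had the highest level of all 18 libraries for 19 of the 35 members. Its members lay 1.13 log2 units above their own 18-library means on average, against 0.28 and -0.35 in wild type hypoxia replicates 0 and 1. Over all genes β-arrestin 1 -/- hypoxia replicate 2, the library with the lowest total, differed most from its group, with a chi-square per gene of 84.7 and 97.3 against its partners and 9.08 to 61.6 in the other pairs.

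**Figure D1:**
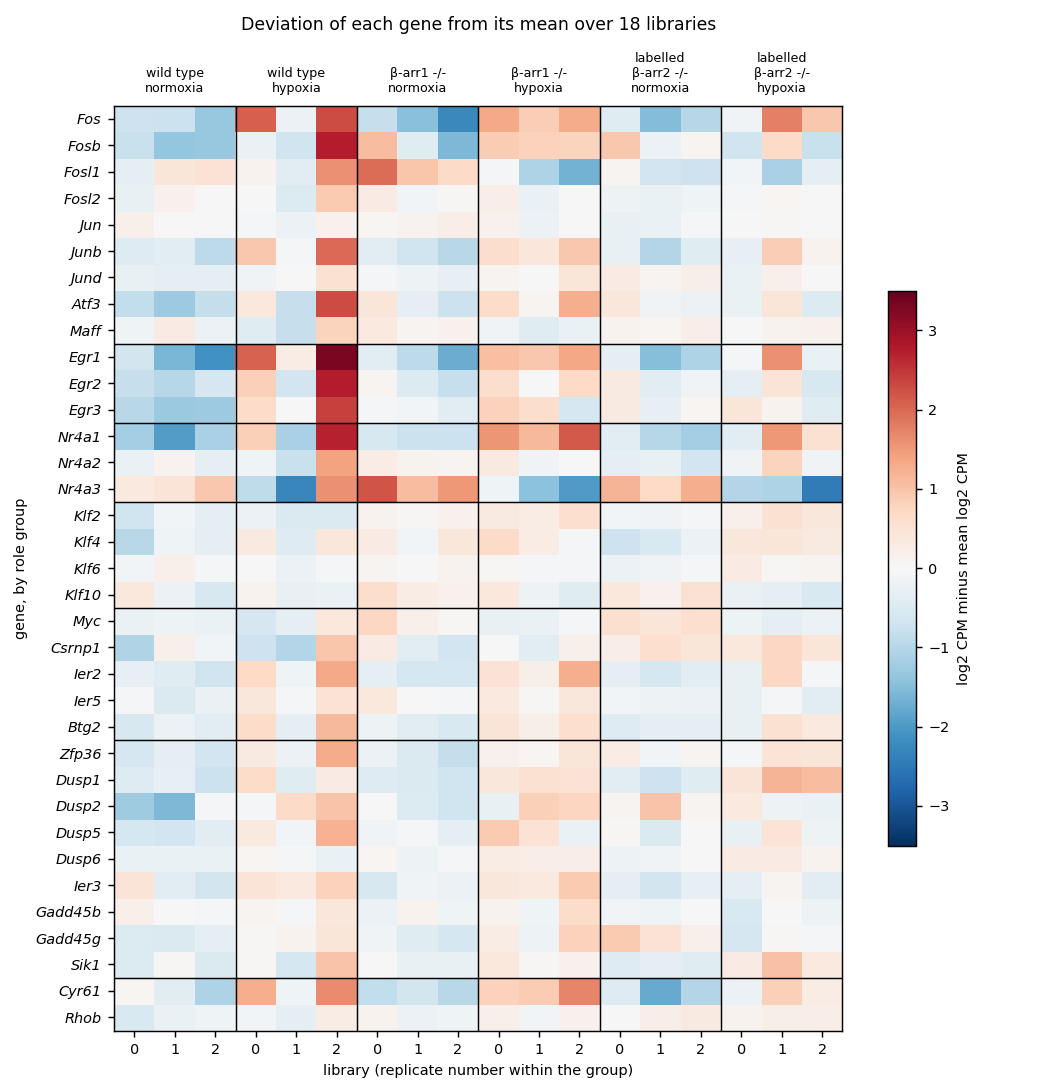
Colour shows log2 CPM of each tested member minus its mean over the 18 libraries, with genes in rows by role and libraries in columns by group and replicate number. Wild type hypoxia replicate 2 is the reddest column, and its Egr1 cell lies 3.31 log2 units above the gene's mean.

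In each genotype a part of the list rose with hypoxia. In wild type lung 10 of 35 members rose and 0 fell (28.6%, where 4.76% of all 15388 tested genes were called, 2.85% higher and 1.92% lower; edgeR quasi-likelihood test, adjusted p below 0.05). The 10 were Fos, Junb, Atf3, Egr1, Egr2, Egr3, Nr4a1, Ier2, Btg2 and Zfp36. In β-arrestin 1 -/- lung 3 members rose, Fos, Dusp1 and Cyr61 (8.57%, against 2.95% of all genes, 1.84% higher and 1.11% lower). In the labelled β-arrestin 2 -/- libraries 8 rose and 4 fell (34.3%, against 21.9% of all genes, 11.1% higher and 10.8% lower). Those that rose were Fos, Dusp1, Dusp6, Klf2, Klf4, Klf6, Sik1 and Cyr61, and those that fell were Nr4a3, Klf10, Gadd45g and Myc. Fos was the 1 member that edgeR called in all 3, and DESeq2 also called Dusp1 and Cyr61 in wild type (adjusted p 0.0262 and 0.0193). In β-arrestin 1 -/- DESeq2 also called Junb, Nr4a1, Ier2, Ier3 and Gadd45g higher and Nr4a3 lower (adjusted p 0.00549 to 0.0493). The median member changed by 0.61, 0.36 and 0.20 on the log2 scale in the 3 genotypes, while the median tested gene changed by 0.00, 0.02 and -0.04. In whole lung RNA, more cells of a type and more RNA per cell cannot be told apart.

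These counts moved with single libraries. The wild type count was 3 without normoxia replicate 0 or 2, 0 without normoxia replicate 1, 2 (Egr1 and Egr3) without hypoxia replicate 2, 11 without hypoxia replicate 0 and 15 without hypoxia replicate 1. The β-arrestin 1 -/- count was 0 without any 1 of its normoxia replicates, 4 and 5 without hypoxia replicates 0 and 1, and 2 without hypoxia replicate 2. In the labelled libraries the counts were 3, 5 and 6 without normoxia replicates 0, 1 and 2, and 6, 4 and 6 without hypoxia replicates 0, 1 and 2. All-gene counts moved as well. In wild type 733 became 209 without normoxia replicate 1 and 943 without hypoxia replicate 0. In β-arrestin 1 -/- 454 became 133 without normoxia replicate 0 and 491 without hypoxia replicate 0. In the labelled libraries 3370 became 1710 without hypoxia replicate 0 and 3107 without normoxia replicate 2.

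The mean of the 3 hypoxia effects, a contrast of the same fit that was added after the data were seen, used all 9 hypoxia and 9 normoxia libraries. By it 17 members rose and 3 fell (57.1%, against 19.4% of all genes, 10.4% higher and 8.94% lower), with a median of 0.51 over the members and 0.00 over all genes. The 17 were Fos, Junb, Atf3, Egr1, Egr2, Egr3, Nr4a1, Klf4, Ier2, Btg2, Zfp36, Dusp1, Dusp5, Dusp6, Ier3, Sik1 and Cyr61, and the 3 were Nr4a3, Klf10 and Myc. Without wild type hypoxia replicate 2 the counts were 15 and 3, and the median member change was 0.31. Across the 18 fits that each left out 1 library, 15 to 20 members were called and 15 members were called in every fit. Over all genes these fits called 2387 to 4554, against 2980 with all libraries. Ranges were also compared. In wild type 13 members were higher in all 3 hypoxia than in all 3 normoxia libraries and 0 were lower, where 13.3% and 11.5% of all genes were. β-Arrestin 1 -/- lung had 14 higher and 4 lower (11.4% and 9.85% of all genes), and the labelled libraries 15 and 4 (22.6% and 25.3%). Fos, Egr1 and Ier2 were higher in each of the 9 hypoxia libraries than in any of the 9 normoxia libraries, as 1.09% of all genes were, and 0 members were lower throughout (0.643%).

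**Figure D2:**
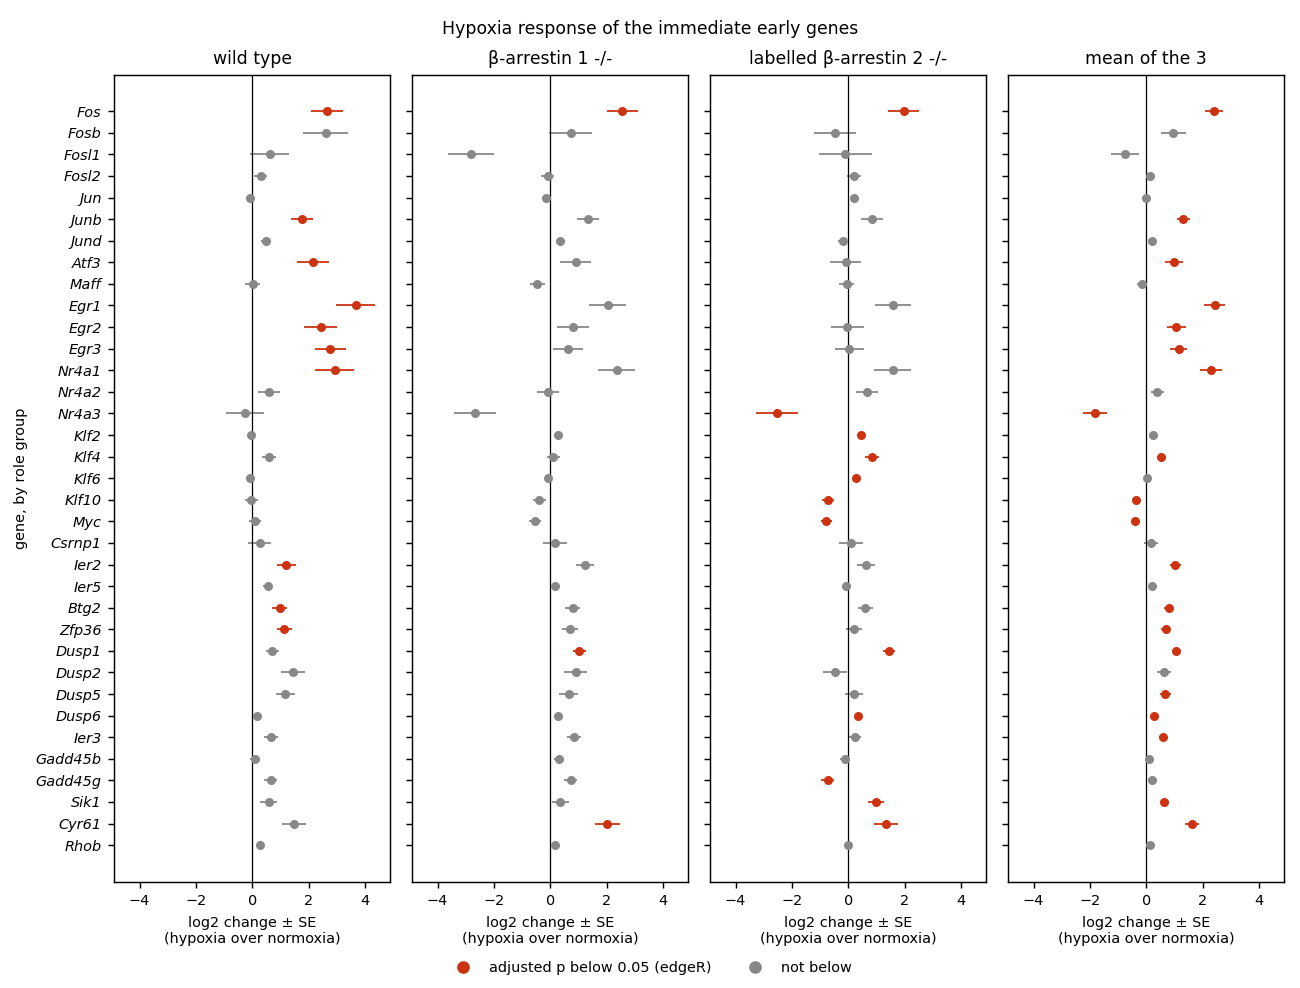
Points are edgeR log2 changes, hypoxia over normoxia, with bars of 1 SE, for 35 members by role in wild type, β-arrestin 1 -/- and labelled β-arrestin 2 -/- lung and for the mean of the 3. Fos is called in every panel, and Nr4a3 stands at -2.68 and -2.53 in the β-arrestin 1 -/- and the labelled panel.

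Levels per transcript length spanned a wide range. In wild type normoxia the highest mean FPKM (fragments scaled by transcript length and library total) were those of Klf2, at 221 ± 44.2 (SD, n = 3), Rhob (189 ± 24.8), Jun (188 ± 11.97), Dusp1 (174 ± 26.9) and Jund (166 ± 5.95). Each of these 5 differed from the next in the order by less than the larger of their SDs. Fos stood at 20.001 ± 4.33 FPKM, Nr4a1 at 12.9 ± 3.76 and Egr1 at 12.8 ± 6.76. Egr3 (0.31 ± 0.05), Fosl1 (0.14 ± 0.04) and Egr4 (0.01 ± 0.01) were lowest. Spread between replicate libraries was also measured. The median SD of log2 CPM within groups was 0.38 over the members, against 0.21 over all tested genes. Fosb, Nr4a3, Nr4a1, Egr1 and Fos lay at the 97.6th to 98.8th percentile of this spread, while Dusp6, Klf6 and Jun lay at the 9.83rd to 16.9th.

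AP-1 binds DNA as pairs of FOS and JUN family proteins. Of its 9 listed subunits and partners, Fos, Junb and Atf3 rose with hypoxia in wild type and by the mean effect, and Fos in every genotype. Over all genes 2.85% were called higher in wild type and 10.4% by the mean effect. Fos (chr12:85473901-85477270) stood in normoxia at 48.7, 47.4 and 32.1 CPM in wild type, 45.8, 29.2 and 16.8 in β-arrestin 1 -/- and 59.6, 27.9 and 39.98 in the β-arrestin 2 -/- labelled libraries. In hypoxia it stood at 341, 69.3 and 389 in wild type, 201, 145 and 196 in β-arrestin 1 -/- and 73.9, 272 and 154 in the labelled libraries. Every hypoxia library was above every normoxia library, although wild type hypoxia replicate 1 and labelled hypoxia replicate 0 were only a little above. The log2 change was 2.64 ± 0.56 (SE) in wild type (edgeR adjusted p 0.0148), 2.56 ± 0.56 in β-arrestin 1 -/- (0.0228) and 1.97 ± 0.55 in the labelled libraries (0.0195). The mean effect was 2.39 ± 0.32 (edgeR adjusted p 0.000118) and was called without any 1 library. The wild type call of Fos was lost without normoxia replicate 0, 1 or 2 or hypoxia replicate 2 (adjusted p up to 0.0669), the β-arrestin 1 -/- call without any 1 normoxia replicate (up to 0.107) and the labelled call without normoxia replicate 1 or 2 or hypoxia replicate 1 (up to 0.089).

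Junb (chr8:84976909-84978748), a JUN family partner of FOS proteins, had normoxia levels of 115, 118 and 83.8 CPM in wild type, 121, 96.1 and 80.2 in β-arrestin 1 -/- and 131, 76.4 and 116 in the β-arrestin 2 -/- labelled libraries. Its hypoxia levels were 304, 151 and 625 in wild type, 241, 206 and 302 in β-arrestin 1 -/- and 128, 284 and 170.3 in the labelled libraries. The ranges were apart in wild type and β-arrestin 1 -/- and met in the labelled libraries, where hypoxia replicate 0 lay within the normoxia range. Junb rose in wild type by 1.77 ± 0.40 (edgeR adjusted p 0.0202) and by the mean effect (1.32 ± 0.23, adjusted p 0.000983), with 1.33 ± 0.40 and 0.85 ± 0.39 in the other lines (adjusted p 0.0878 and 0.127). DESeq2 called the β-arrestin 1 -/- change of Junb (adjusted p 0.0133). Atf3 (chr1:191170297-191183333), a stress-induced repressor of the ATF family, had 9.31, 6.93 and 9.501 CPM in wild type, 22.7, 13.4 and 9.995 in β-arrestin 1 -/- and 22.6, 15.7 and 14.8 in the β-arrestin 2 -/- labelled libraries in normoxia. In hypoxia Atf3 had 21.8, 9.69 and 82.4 in wild type, 26.7, 18.3 and 40.9 in β-arrestin 1 -/- and 14.6, 22.9 and 12.3 in the labelled libraries. A single library, wild type hypoxia replicate 2, was far above the rest for Atf3. Its log2 change in wild type was 2.15 ± 0.58 (edgeR adjusted p 0.0441), and 0.89 and -0.09 in the other lines were not called (adjusted p 0.408 and 0.924). Without wild type hypoxia replicate 2 the wild type changes were 1.10 for Junb (adjusted p 0.11) and 0.87 for Atf3 (0.351), and both calls were also lost without any 1 wild type normoxia replicate. The mean effect of Junb was called without any 1 library, and that of Atf3 (0.98 ± 0.32, adjusted p 0.0426) was lost in 12 of the 18 fits (adjusted p up to 0.0923), those without any 1 of the wild type normoxia replicates, wild type hypoxia replicate 2, β-arrestin 1 -/- normoxia replicates 1 and 2, β-arrestin 1 -/- hypoxia replicates 0 and 2, labelled normoxia replicates 1 and 2 and labelled hypoxia replicates 0 and 1.

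By edgeR the other AP-1 members did not pass in any comparison. DESeq2 called Fosb (adjusted p 0.025) and Jund (0.042) higher in wild type hypoxia, and Jund also higher in labelled than in wild type normoxia (0.0221) and lower in the labelled interaction (0.0355). Fosb, a FOS relative with low basal levels, had 10.4, 7.41 and 82.8 CPM in wild type hypoxia against 7.06, 4.73 and 4.77 in normoxia, a log2 change of 2.60 ± 0.80 (edgeR adjusted p 0.0775) that was 0.68 without hypoxia replicate 2 (adjusted p 0.703). Jun, the founding AP-1 partner of Fos, stayed between 505 and 709.8 CPM in every library, with a mean effect of -0.01 ± 0.06 (adjusted p 0.92). Jund, the most constitutive JUN protein, was between 485 and 893 CPM (0.21 ± 0.09, adjusted p 0.119). Fosl2 was between 85.3 and 222 CPM and Maff, a small MAF partner of AP-1 proteins, between 34.4 and 103, each highest in wild type hypoxia replicate 2. Fosl1 was near the limit of detection, at 0 to 24 fragments per library. Fragments of Jun, Jund and Fosl1 cannot be told apart from those of genes on the opposite strand that share exon bases with them (Junos, Gm11175 and Ccdc85b), since the library kit does not mark strand. The same holds for Zfp36, Dusp5 and Csrnp1.

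EGR proteins are zinc finger transcription factors, of which EGR1 is induced by growth factors, stretch and low oxygen in vessel walls. All 3 tested members, Egr1, Egr2 and Egr3, rose in wild type, and all 3 rose by the mean effect, but wild type hypoxia replicate 2 was far above every other library for each. Of all genes, 2.85% rose in wild type and 10.4% by the mean effect. Egr1, on chromosome 18, had normoxia levels of 65.8, 34.3 and 23.9 CPM in wild type, 80.1, 54.5 and 31.02 in β-arrestin 1 -/- and 80.9, 36.7 and 49.02 in the β-arrestin 2 -/- labelled libraries. In hypoxia Egr1 stood at 432, 124 and 1023 in wild type, 214, 199.9 and 264 in β-arrestin 1 -/- and 97.8, 310.4 and 87.4 in the labelled libraries. All 9 hypoxia libraries were above all 9 normoxia libraries, by little for labelled replicates 0 and 2. Egr1 changed by 3.67 ± 0.69 in wild type (edgeR adjusted p 0.0069), which was the largest change of any tested member there, by 2.03 ± 0.64 in β-arrestin 1 -/- (0.112) and by 1.58 ± 0.64 in the labelled libraries (0.0855). The wild type call held without hypoxia replicate 2 (2.74, adjusted p 0.0328) and was lost only without normoxia replicate 1 (adjusted p 0.0507). The mean effect, 2.43 ± 0.38 (adjusted p 0.000413), was called without any 1 library.

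Egr2 (chr10:67537869-67542188) had 4.82, 4.26 and 5.61 CPM in wild type, 9.12, 6.13 and 4.84 in β-arrestin 1 -/- and 10.7, 6.49 and 7.79 in the β-arrestin 2 -/- labelled libraries in normoxia and Egr3 (chr14:70077445-70080157) had 0.504, 0.383 and 0.398 CPM in wild type, 1.03, 1.01 and 0.807 in β-arrestin 1 -/- and 1.36, 0.872 and 1.13 in the β-arrestin 2 -/- labelled libraries. In hypoxia Egr2 had 15.4, 5.33 and 58.1 in wild type, 13.05, 8.38 and 13.95 in β-arrestin 1 -/- and 6.89, 11.7 and 5.75 in the labelled libraries. Egr3 in hypoxia had 1.74, 1.101 and 6.002 in wild type, 1.97, 1.702 and 0.688 in β-arrestin 1 -/- and 1.47, 1.18 and 0.784 in the labelled libraries. Outside wild type hypoxia replicate 2 the highest levels were 15.4 CPM for Egr2 and 1.97 CPM for Egr3. Egr2 changed by 2.43 ± 0.59 in wild type (edgeR adjusted p 0.0302) and by 0.81 and -0.03 in the other lines (adjusted p 0.47 and 0.974). Egr3 changed by 2.77 ± 0.56 (adjusted p 0.0109), 0.63 and 0.04 (adjusted p 0.542 and 0.967). With wild type hypoxia replicate 2 left out, Egr3 changed by 1.71 (adjusted p 0.0489) and Egr2 by 1.07 (0.218). The Egr2 call was also lost without any 1 wild type normoxia replicate, and that of Egr3 without normoxia replicate 1 (adjusted p 0.0637). The mean effect of Egr3 (1.15 ± 0.31, adjusted p 0.0166) was called without any 1 library but lost with limma on log2(FPKM + 1), with or without an FPKM minimum (0.45, adjusted p 0.0757 and 0.0959), while that of Egr2 (1.07 ± 0.33, adjusted p 0.0343) was lost in 9 of 18 fits (adjusted p up to 0.0767), those without wild type normoxia replicates 0 and 1, wild type hypoxia replicate 2, β-arrestin 1 -/- normoxia replicates 1 and 2, β-arrestin 1 -/- hypoxia replicate 0, labelled normoxia replicates 1 and 2 and labelled hypoxia replicate 1. Egr4 was at 0 in 9 libraries and had 11 fragments at most, in wild type hypoxia replicate 2.

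**Figure D3:**
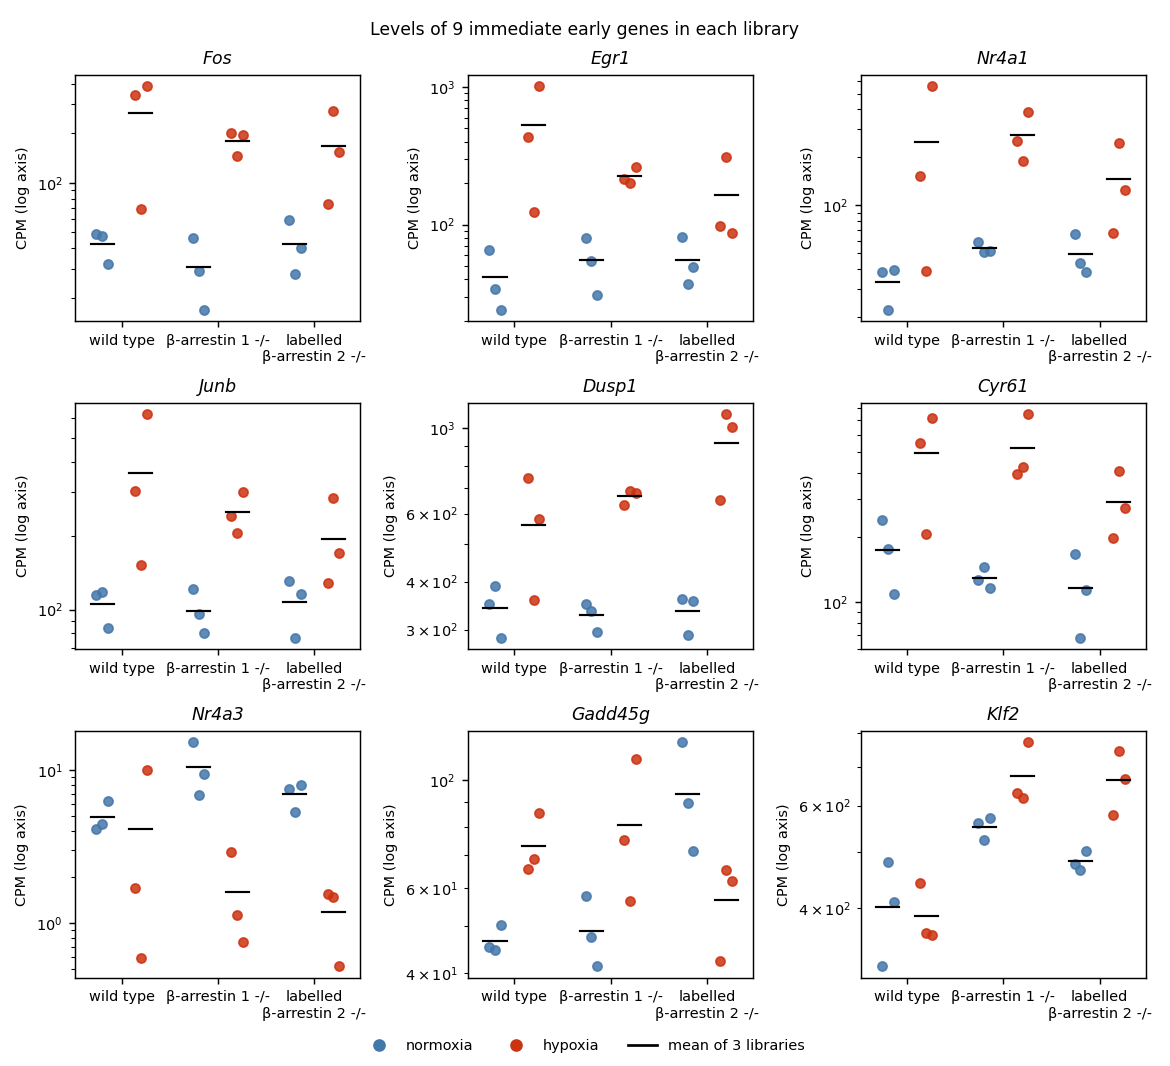
Each point is the CPM of 1 library on a log axis, in blue for normoxia and red for hypoxia, with bars at the mean of 3, for 9 members in 3 genotypes. Fos and Egr1 hypoxia points lie above all normoxia points, whereas Nr4a3 points lie lower in hypoxia except for wild type replicate 2 at 10.02 CPM.

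Orphan nuclear receptors of the NR4A family act without a bound hormone, as early response factors in endothelium, smooth muscle and immune cells. Its members moved apart: Nr4a1 rose and Nr4a3 fell by the mean effect. Nr4a1 (chr15:101266846-101274794) had 38.1, 22.04 and 39.3 CPM in wild type, 58.6, 51.3 and 51.6 in β-arrestin 1 -/- and 66.1, 43.5 and 38.01 in the β-arrestin 2 -/- labelled libraries in normoxia. In hypoxia it had 153, 38.9 and 562 in wild type, 253, 189.5 and 383 in β-arrestin 1 -/- and 67.3, 246 and 124 in the labelled libraries. Wild type hypoxia replicate 1 lay within the wild type normoxia range, and in the other lines the exposures did not overlap. The log2 change was 2.92 ± 0.69 in wild type (edgeR adjusted p 0.0244), 2.35 ± 0.67 in β-arrestin 1 -/- (0.0714) and 1.57 ± 0.65 in the labelled libraries (0.094). By DESeq2 the β-arrestin 1 -/- change was called (adjusted p 0.0121). Without wild type hypoxia replicate 2 the wild type change was 1.52 (adjusted p 0.166), and the call was also lost without any 1 wild type normoxia replicate. The mean effect, 2.28 ± 0.39 (adjusted p 0.00081), was called without any 1 library.

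Nr4a3 (chr4:48051248-48083352) had 4.13, 4.45 and 6.32 CPM in wild type, 15.2, 6.91 and 9.41 in β-arrestin 1 -/- and 7.55, 5.32 and 7.95 in the β-arrestin 2 -/- labelled libraries in normoxia. In hypoxia the levels were 1.69, 0.593 and 10.02 in wild type, 2.93, 1.13 and 0.751 in β-arrestin 1 -/- and 1.56, 1.49 and 0.523 in the labelled libraries. In 8 of 9 hypoxia libraries Nr4a3 was below every normoxia library, and in the ninth, wild type replicate 2, it was at 10.02 CPM, above 8 of the 9 normoxia libraries. Nr4a3 fell by 2.53 ± 0.75 on the log2 scale in the labelled libraries (edgeR adjusted p 0.0259), with -2.68 ± 0.74 in β-arrestin 1 -/- (adjusted p 0.0624) and -0.26 ± 0.68 in wild type (0.901). DESeq2 called the fall in β-arrestin 1 -/- (adjusted p 0.0168). Leaving out wild type hypoxia replicate 2 gave a wild type value of -2.12 (adjusted p 0.0777). The mean effect was -1.83 ± 0.42 (adjusted p 0.00617) and was called without any 1 library, in a range of -2.45 to -1.66. In the labelled libraries the call was lost without normoxia replicate 0 or 2 or any 1 hypoxia replicate (adjusted p up to 0.0941). Nr4a2, another receptor of the family, had 7.41 to 33.8 CPM and passed in no comparison by edgeR or DESeq2 (mean effect 0.39 ± 0.23, edgeR adjusted p 0.255).

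KLF zinc finger factors include Klf2 and Klf4, which are induced by shear stress and hold endothelium quiescent. In the labelled β-arrestin 2 -/- libraries Klf2, Klf4 and Klf6 rose with hypoxia and Klf10 fell, while in wild type and β-arrestin 1 -/- lung none of the 4 passed (edgeR; 1 and 0 at an unadjusted p below 0.05, and 0 in each by DESeq2). Of all genes, 21.9%, 4.76% and 2.95% were called in these comparisons. In the labelled interaction edgeR called 0 of the 4, and DESeq2 called Klf6 (0.38, adjusted p 0.0387). Klf2 (chr8:72319062-72321654) had 318, 479.7 and 409.9 CPM in wild type, 561, 523 and 572 in β-arrestin 1 -/- and 476, 466 and 502 in the β-arrestin 2 -/- labelled libraries in normoxia. In hypoxia it had 441, 363 and 359 in wild type, 631, 618 and 771 in β-arrestin 1 -/- and 579, 743 and 667 in the labelled libraries. Both other lines had more Klf2 than every wild type hypoxia library under hypoxia, and in both lines every hypoxia level was above every normoxia level. In normoxia the β-arrestin 1 -/- libraries were also all above the wild type libraries. The hypoxia change of Klf2 was 0.46 ± 0.14 in the labelled libraries (edgeR adjusted p 0.0286), 0.29 ± 0.14 in β-arrestin 1 -/- (0.295) and -0.05 ± 0.14 in wild type (0.901). Klf4 (chr4:55527137-55532475) had 142, 249.8 and 221 CPM in wild type, 341, 259 and 365 in β-arrestin 1 -/- and 169.7, 193 and 243 in the β-arrestin 2 -/- labelled libraries in normoxia. Its hypoxia levels were 346, 205 and 369 in wild type, 438, 334 and 269 in β-arrestin 1 -/- and 368, 369.9 and 348 in the labelled libraries. The labelled hypoxia libraries lay close together, all above the labelled normoxia libraries. Klf4 rose in them by 0.84 ± 0.24 (edgeR adjusted p 0.0221) and by the mean effect (0.51 ± 0.14, 0.0166). Its wild type change of 0.59 ± 0.24 was not called (edgeR adjusted p 0.188).

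Klf6 (chr13:5861489-5870393), which is induced by injury, had 275, 331 and 286 CPM in wild type, 311, 293 and 322 in β-arrestin 1 -/- and 257, 271 and 281 in the β-arrestin 2 -/- labelled libraries in normoxia. In hypoxia Klf6 had 297, 254 and 288 in wild type, 300.0, 282 and 282 in β-arrestin 1 -/- and 358, 301 and 315 in the labelled libraries. The whole range of Klf6 was narrow, and its rise in the labelled libraries was 0.27 ± 0.09 (edgeR adjusted p 0.0493). Klf10 (chr15:38294413-38300707), a target of TGF-beta signalling, had 85.7, 57.4 and 44.5 CPM in wild type, 101, 79.00 and 72.7 in β-arrestin 1 -/- and 85.2, 73.9 and 95.4 in the β-arrestin 2 -/- labelled libraries in normoxia. Hypoxia levels of Klf10 were 71.2, 55.2 and 56.5 in wild type, 85.4, 57.8 and 49.2 in β-arrestin 1 -/- and 56.4, 52.2 and 45.9 in the labelled libraries. Klf10 fell in the labelled libraries (-0.72 ± 0.23, edgeR adjusted p 0.0326) and by the mean effect (-0.38 ± 0.13, 0.0488). Within the labelled libraries the calls of Klf6 and Klf10 were each lost in 5 of 6 fits without 1 library (adjusted p up to 0.211 and 0.108; Klf6 kept its call without hypoxia replicate 1 and Klf10 without normoxia replicate 1). Klf2 lost its call without normoxia replicate 0 or 1 or hypoxia replicate 1 or 2 (up to 0.0981), and Klf4 without normoxia replicate 0 or 1 or hypoxia replicate 0 or 1 (up to 0.0894). The mean call of Klf4 was kept without any 1 library, while that of Klf10 was lost in 14 of 18 fits (adjusted p up to 0.106) and kept only without wild type normoxia replicate 2, wild type hypoxia replicate 0, β-arrestin 1 -/- normoxia replicate 2 or β-arrestin 1 -/- hypoxia replicate 0.

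Among the other regulators of transcription Ier2 and Btg2 rose and Myc fell by the mean effect, where 10.4% and 8.94% of all genes did. Ier2 (chr8:84661331-84662852), a short nuclear protein, had 116, 105 and 85.6 CPM in wild type, 113, 91.3 and 91.03 in β-arrestin 1 -/- and 114, 91.5 and 107 in the β-arrestin 2 -/- labelled libraries in normoxia. In hypoxia it had 228, 126 and 353 in wild type, 198, 163 and 336 in β-arrestin 1 -/- and 117, 231 and 136 in the labelled libraries. All 9 hypoxia libraries were above all 9 normoxia libraries, labelled replicate 0 by the least. Ier2 changed by 1.21 ± 0.33 in wild type (edgeR adjusted p 0.0478), 1.24 ± 0.33 in β-arrestin 1 -/- (0.0558) and 0.63 ± 0.33 in the labelled libraries (0.171), and by 1.03 ± 0.19 in the mean (0.00154). Its β-arrestin 1 -/- change was called by DESeq2 (adjusted p 0.00549). Btg2 (chr1:134074865-134079155), an antiproliferative factor that promotes removal of poly(A) tails, had 229.6, 292 and 257 CPM in wild type, 298, 256 and 232 in β-arrestin 1 -/- and 249, 272 and 273 in the β-arrestin 2 -/- labelled libraries in normoxia. Hypoxia levels of Btg2 were 524, 268 and 744 in wild type, 460.5, 388 and 511 in β-arrestin 1 -/- and 279, 488 and 429 in the labelled libraries. Wild type hypoxia replicate 1 was inside the wild type normoxia range, and the other lines did not overlap. Btg2 rose in wild type by 0.98 ± 0.27 (edgeR adjusted p 0.0479) and by the mean effect (0.79 ± 0.15, 0.00227). Once wild type hypoxia replicate 2 was left out, the wild type changes were 0.78 for Ier2 and 0.60 for Btg2 (adjusted p 0.244 and 0.255), and both were also lost without hypoxia replicate 0 or any 1 normoxia replicate. Both mean effects were called without any 1 library.

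Myc (chr15:61985341-61990361), the growth regulator, had 7.15, 7.55 and 7.25 CPM in wild type, 13.96, 9.63 and 8.695 in β-arrestin 1 -/- and 12.6, 11.3 and 12.8 in the β-arrestin 2 -/- labelled libraries in normoxia. In hypoxia Myc had 5.65, 6.69 and 10.97 in wild type, 7.05, 7.200 and 8.07 in β-arrestin 1 -/- and 7.45, 6.67 and 7.32 in the labelled libraries. Levels were low throughout, and in normoxia every library of both other lines was above every wild type library. In both lines every hypoxia level was below every normoxia level, but edgeR did not call the fall in β-arrestin 1 -/-. Myc fell in the labelled libraries by 0.78 ± 0.21 (edgeR adjusted p 0.016), a call lost without normoxia replicate 0 or hypoxia replicate 1 (adjusted p up to 0.0582). Its mean effect of -0.41 ± 0.12 (adjusted p 0.0264) was lost without wild type hypoxia replicate 1, β-arrestin 1 -/- normoxia replicate 0 or labelled hypoxia replicate 1 (up to 0.0602). Ier5, a regulator of heat shock factor, had 92.95 to 187 CPM and Csrnp1, a nuclear protein induced by AXIN1, 46.9 to 191 CPM. Neither passed in any comparison by edgeR (DESeq2 called Ier5 higher in wild type hypoxia, adjusted p 0.0186; mean effects 0.21 ± 0.09 and 0.17 ± 0.24, edgeR adjusted p 0.113 and 0.666).

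Of the 9 feedback and stress genes, 6 rose and 0 fell by the mean effect, where 10.4% and 8.94% of all genes did. Zfp36 (chr7:28376784-28379228), the tristetraprolin gene whose product destabilises cytokine mRNAs, had 113, 135 and 108 CPM in wild type, 148, 121 and 95.7 in β-arrestin 1 -/- and 203, 160.4 and 183 in the β-arrestin 2 -/- labelled libraries in normoxia. In hypoxia Zfp36 had 214, 148 and 420.3 in wild type, 191, 178 and 229 in β-arrestin 1 -/- and 162, 236 and 229 in the labelled libraries. Hypoxia was above normoxia without overlap in wild type and β-arrestin 1 -/-, and labelled replicate 0 overlapped. Zfp36 rose in wild type by 1.14 ± 0.28 (edgeR adjusted p 0.0308), a call lost without hypoxia replicate 2 (0.61, adjusted p 0.162) or any 1 normoxia replicate, and by the mean effect (0.68 ± 0.16, 0.00741). Dusp1 (chr17:26505591-26508472), a phosphatase that inactivates p38, JNK and ERK kinases and is also induced by glucocorticoids, had 350.4, 390.0 and 285 CPM in wild type, 349, 336 and 295 in β-arrestin 1 -/- and 361, 290.0 and 357 in the β-arrestin 2 -/- labelled libraries in normoxia. Hypoxia levels of Dusp1 were 744, 359 and 581 in wild type, 634, 686 and 677 in β-arrestin 1 -/- and 649.8, 1089 and 1009 in the labelled libraries. The labelled hypoxia libraries had the highest group mean, and only wild type hypoxia replicate 1 lay within its normoxia range. Dusp1 rose by 1.45 ± 0.22 in the labelled libraries (edgeR adjusted p 0.000654) and by 1.03 ± 0.22 in β-arrestin 1 -/- (0.0205), with 0.72 ± 0.22 in wild type (0.0772). The labelled call held without any 1 library, as did the mean effect (1.06 ± 0.13, adjusted p 4.73e-05), and the β-arrestin 1 -/- call was lost without any 1 of its normoxia replicates (adjusted p up to 0.0924). Of all called members, Dusp1 had the smallest adjusted p in the labelled libraries and by the mean effect.

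Dusp6 (chr10:99263231-99267489), a phosphatase specific for ERK, had 151, 152 and 150.1 CPM in wild type, 188, 157 and 169 in β-arrestin 1 -/- and 157, 163 and 177 in the β-arrestin 2 -/- labelled libraries in normoxia. Hypoxia gave 187, 172 and 152 in wild type, 211, 208 and 208 in β-arrestin 1 -/- and 218, 219 and 192 in the labelled libraries. In each genotype the hypoxia libraries were all above the normoxia libraries, wild type hypoxia replicate 2 by almost nothing. Dusp6 rose by 0.34 ± 0.09 in the labelled libraries (edgeR adjusted p 0.0148, lost without normoxia replicate 0 or hypoxia replicate 0 at up to 0.062) and by 0.27 ± 0.05 in the mean (0.00211). Dusp5 (chr19:53529318-53541322), its nuclear relative, had 2.75, 2.68 and 3.27 CPM in wild type, 3.94, 4.15 and 3.36 in β-arrestin 1 -/- and 4.404, 3.01 and 4.28 in the β-arrestin 2 -/- labelled libraries in normoxia. In hypoxia it had 5.47, 4.02 and 10.2 in wild type, 8.15, 6.15 and 3.63 in β-arrestin 1 -/- and 3.55, 6.08 and 3.79 in the labelled libraries. The highest Dusp5 level was again that of wild type hypoxia replicate 2. Dusp5 rose by the mean effect (0.68 ± 0.19, edgeR adjusted p 0.0213), a call lost without labelled hypoxia replicate 1 (0.0531). Sik1 (chr17:31844250-31855792), a kinase that is induced by cAMP and restrains CREB coactivators, had 151, 219 and 150.5 CPM in wild type, 210.1, 179 and 177 in β-arrestin 1 -/- and 154, 172 and 159 in the β-arrestin 2 -/- labelled libraries in normoxia. Hypoxia levels of Sik1 were 216, 139 and 424 in wild type, 273, 217 and 235 in β-arrestin 1 -/- and 259, 431 and 269.9 in the labelled libraries. Labelled and β-arrestin 1 -/- hypoxia libraries were above their normoxia libraries, and wild type ranges overlapped. Sik1 rose by 0.99 ± 0.30 in the labelled libraries (edgeR adjusted p 0.0282, lost without any 1 normoxia replicate or hypoxia replicate 1 at up to 0.12) and by 0.64 ± 0.17 in the mean (0.0152).

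Ier3 (chr17:35821713-35822911), a survival factor, had 209, 118 and 99.1 CPM in wild type, 105, 142 and 134 in β-arrestin 1 -/- and 124, 99.3 and 127 in the β-arrestin 2 -/- labelled libraries in normoxia. In hypoxia it had 212, 194 and 269 in wild type, 204, 194 and 290.0 in β-arrestin 1 -/- and 124, 166 and 118 in the labelled libraries. Wild type normoxia replicate 0 was above wild type hypoxia replicate 1, and the labelled exposures overlapped. By edgeR Ier3 rose in the mean effect only (0.58 ± 0.14, edgeR adjusted p 0.00868), with changes of 0.66, 0.85 and 0.22 in the 3 genotypes, of which DESeq2 called that in β-arrestin 1 -/- (adjusted p 0.0169). Gadd45g (chr13:51846675-51848474), a stress sensor that activates p38 and JNK kinases, had 45.3, 44.6 and 50.2 CPM in wild type, 57.8, 47.4 and 41.3 in β-arrestin 1 -/- and 119.8, 89.9 and 71.4 in the β-arrestin 2 -/- labelled libraries in normoxia. Hypoxia levels of Gadd45g were 65.6, 68.7 and 85.6 in wild type, 75.3, 56.3 and 111 in β-arrestin 1 -/- and 42.5, 65.2 and 62.03 in the labelled libraries. Hypoxia was higher than normoxia in wild type and lower in the labelled libraries, with no overlap in either. Gadd45g fell by 0.73 ± 0.23 in the labelled libraries (edgeR adjusted p 0.0353), lost without normoxia replicate 0 or 1 or hypoxia replicate 0 or 2 (adjusted p up to 0.173), and was not called in wild type (0.65 ± 0.23, 0.128). In β-arrestin 1 -/- DESeq2 called Gadd45g higher with hypoxia (0.71, adjusted p 0.0493). Gadd45b had 90.3 to 204 CPM and Dusp2 1.00 to 6.46 CPM, and neither passed in any comparison by edgeR (mean effects 0.10 ± 0.10 and 0.63 ± 0.24, edgeR adjusted p 0.562 and 0.0807). DESeq2 called Dusp2 higher in wild type hypoxia (adjusted p 0.0144), in labelled against wild type normoxia (0.022) and by the mean effect (0.0456), and lower in the labelled interaction (0.0201). The mean effects of Zfp36, Dusp1, Dusp6, Ier3 and Sik1 were called without any 1 library.

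Cyr61 (chr3:145646971-145649985), a secreted matricellular protein induced by serum response factor and YAP, rose in both arrestin lines and by the mean effect. Its normoxia levels were 241, 176 and 108 CPM in wild type, 126, 146 and 116 in β-arrestin 1 -/- and 167, 67.6 and 113 in the β-arrestin 2 -/- labelled libraries. In hypoxia they were 549, 206 and 719 in wild type, 396, 423 and 749 in β-arrestin 1 -/- and 197, 406 and 273 in the labelled libraries. Wild type hypoxia replicate 1 lay within the wild type normoxia range, and the other lines did not overlap. Cyr61 changed by 2.02 ± 0.44 in β-arrestin 1 -/- (edgeR adjusted p 0.0214), 1.34 ± 0.43 in the labelled libraries (0.037) and 1.49 ± 0.43 in wild type (0.0602). The mean effect, 1.61 ± 0.25 (0.000408), was called without any 1 library. The β-arrestin 1 -/- call was lost without hypoxia replicate 2 or any 1 normoxia replicate (adjusted p up to 0.102), and the labelled call without normoxia replicate 1 or 2 or hypoxia replicate 1 or 2 (up to 0.134). Rhob (chr12:8497759-8499985), a small GTPase of the actin cytoskeleton, had 366, 455 and 474 CPM in wild type, 579, 459 and 475 in β-arrestin 1 -/- and 531, 621 and 653 in the β-arrestin 2 -/- labelled libraries in normoxia. In hypoxia Rhob had 495, 427 and 633 in wild type, 601, 497 and 584 in β-arrestin 1 -/- and 576, 610.0 and 619.9 in the labelled libraries. Exposure groups overlapped in each genotype, and the mean effect was 0.14 ± 0.08 (edgeR adjusted p 0.263).

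**Figure D4:**
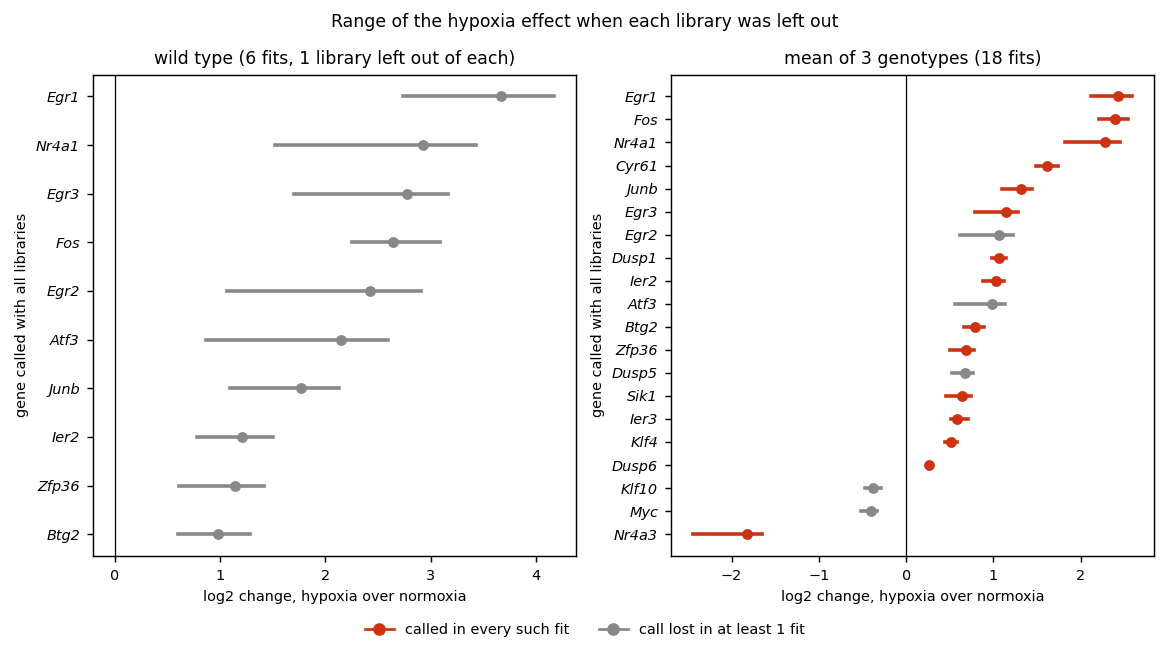
Bars span the log2 change of each called member when each library was left out in turn, with points at the value from all libraries, for wild type (6 fits) and for the mean of the 3 genotypes (18 fits). In wild type every bar is grey because each call was lost in at least 1 fit, and on the right 15 of 20 members are red, called in every fit.

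Each arrestin line was next set against wild type under the same exposure. In normoxia 0 of 35 members differed between β-arrestin 1 -/- and wild type lung by edgeR, where 0.221% of all genes did, 0.078% higher and 0.143% lower. At an unadjusted p below 0.05 there were 4, and DESeq2 called 0. In hypoxia 1 member, Klf2, was higher in β-arrestin 1 -/- (2.86%, against 0.201% of all genes, 0.0845% higher and 0.117% lower), by 0.80 ± 0.14 (edgeR adjusted p 0.0264). Klf2 was likewise the 1 member that edgeR called between labelled and wild type lung in hypoxia (0.923% of all genes were, 0.344% higher and 0.578% lower), higher by 0.77 ± 0.14 (adjusted p 0.0132). There 13 members had an unadjusted p below 0.05, and DESeq2 also called Dusp1 and Dusp6 higher (0.72 and 0.31, adjusted p 0.0496 and 0.0367). Both comparisons share the wild type hypoxia libraries, with Klf2 at 441, 363 and 359 CPM. The first Klf2 call was lost without wild type hypoxia replicate 1 or 2 or β-arrestin 1 -/- hypoxia replicate 2 (edgeR adjusted p up to 0.142), and the second without wild type hypoxia replicate 1 or 2 or labelled hypoxia replicate 1 or 2 (up to 0.0671).

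Labelled and wild type lung differed in normoxia at 3 members, Gadd45g, Myc and Rhob, all higher in the labelled libraries (8.57%, against 9.49% of all genes, 4% higher and 5.49% lower, so the share was near the background). Gadd45g was higher by 1.00 ± 0.23 (edgeR adjusted p 0.0196), Myc by 0.74 ± 0.21 (0.0382) and Rhob by 0.48 ± 0.14 (0.0485). The Gadd45g call was lost without wild type normoxia replicate 0 or 1 or labelled normoxia replicate 0 (adjusted p up to 0.101), and those of Myc and Rhob without any 1 of the 6 libraries (up to 0.124 and 0.157). In hypoxia the median member was lower by 0.36 in the labelled than in the wild type libraries, and 0.07 higher without wild type hypoxia replicate 2.

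Whether the hypoxia response differed between genotypes was tested with interaction terms, which share the wild type libraries. For β-arrestin 1 -/- 0 of 35 members were called by edgeR, as were 0 of all genes (0%), with 3 members at an unadjusted p below 0.05 and 0 by DESeq2. For the labelled libraries 2 members, Egr3 and Gadd45g, had a lower response than wild type (5.71%, against 6.05% of all genes, 3.49% higher and 2.56% lower, so the share was near the background). The interaction was -2.74 ± 0.77 for Egr3 (edgeR adjusted p 0.0477) and -1.38 ± 0.33 for Gadd45g (0.0267). DESeq2 also called Egr2, Jund and Dusp2 lower and Klf6 higher (adjusted p 0.0465, 0.0355, 0.0201 and 0.0387). Of 12 fits that left out 1 library, Egr3 was called only without wild type hypoxia replicate 0 or 1 (adjusted p up to 0.119 in the others), and it lost its call in 6 of 8 other settings of the analysis. Gadd45g lost its call in 6 of the 12, without wild type normoxia replicate 0 or 1, wild type hypoxia replicate 2, labelled normoxia replicate 0 or 1 or labelled hypoxia replicate 0 (up to 0.0741). The median member interaction was -0.39 for β-arrestin 1 -/- and -0.62 for the labelled libraries, against 0.03 and -0.06 over all genes. These medians, without wild type hypoxia replicate 2, were 0.09 and -0.14, and no member was called for either. Fos, Nr4a1 and Cyr61 had interactions of -0.08 ± 0.76, -0.57 ± 0.91 and 0.53 ± 0.60 for β-arrestin 1 -/- and -0.67 ± 0.75, -1.35 ± 0.91 and -0.15 ± 0.60 for the labelled libraries, none called (edgeR adjusted p of 0.347 or above).

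Genes related to the list were read from the same fit. Of 47 tested early response genes outside the list, 9 rose in wild type hypoxia and 0 fell (4.76% of all genes were called), led by Sgk1, Arc and Btg1, with a median of 0.39. The count without wild type hypoxia replicate 2 was 3 higher and 1 lower. In β-arrestin 1 -/- 5 rose and 1 fell, led by Sgk1, Rgs2 and Id1 (2.95% of all genes, list median 0.11), and in the labelled libraries 9 rose and 5 fell, led by Sgk1, Crem and Zfp36l1 (21.9% of all genes, list median 0.09). Sgk1, a kinase gene induced by glucocorticoids and serum, rose by 0.82 ± 0.14, 1.34 ± 0.14 and 0.83 ± 0.14 in the 3 genotypes (edgeR adjusted p 0.00442, 0.000192 and 0.00136). Crem, whose products include a cAMP early repressor, fell in the labelled libraries (-0.87 ± 0.16, edgeR adjusted p 0.00233). Of 33 tested kinases and transcription factors upstream of the list, 1 rose in wild type (Mef2c, 0.62 ± 0.12), 3 in β-arrestin 1 -/- and 5 in the labelled libraries, where 5 others fell, with medians of -0.01, -0.04 and 0.15. Over all genes 4.76%, 2.95% and 21.9% were called in these comparisons.

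Markers of handling stress and of other cell types were measured beside these results. Of 9 heat shock genes 0 passed in any of the 3 hypoxia comparisons by edgeR (0, 0 and 1 at an unadjusted p below 0.05, and 0, 0 and 1 by DESeq2). Their summed level was 563 to 1128 CPM in wild type hypoxia and 626 to 1045 in wild type normoxia, 887 to 1550 and 1169 to 1843 in β-arrestin 1 -/-, and 759 to 1420 and 613 to 831 in the labelled libraries. Between β-arrestin 1 -/- and wild type normoxia 0 of the 9 passed by edgeR, with 6 at an unadjusted p below 0.05 and a median of 0.71. Between these lines in hypoxia edgeR called 1 higher, Hspb1 (0.0845% of all genes were), and 0 without wild type hypoxia replicate 2. The 12 listed neutrophil markers summed to 264 to 522 CPM in wild type hypoxia against 86.4 to 214 in normoxia, to 281 to 502 against 101 to 147 in β-arrestin 1 -/- and to 228 to 305 against 137 to 255 in the labelled libraries. By the mean effect 9 of 11 tested neutrophil markers rose, with a median of 1.5, while Elane was at 0 in 17 libraries, Camp in 3 and Ngp in 1. B cell markers rose at 3 of 6 in wild type hypoxia (1 without replicate 2). They summed to 46.8 to 185 CPM there against 14.1 to 49.7 in normoxia, and to 41.01 to 95.2 against 29.1 to 37.6 in β-arrestin 1 -/-. In the labelled libraries the sums were 35.3 to 61.2 against 46.04 to 69.7. T and NK cell markers rose at 4 of 10 in wild type hypoxia (2 without replicate 2), with sums of 38.1 to 70.2 CPM against 16.9 to 36.6. In β-arrestin 1 -/- the sums were 43.9 to 84.1 against 35.1 to 46.7. In the labelled libraries 1 of 10, Klrd1, fell, with sums of 35.4 to 46.04 against 37.2 to 40.4. Cardiac muscle markers, none of 9 called by edgeR, summed to 945 to 1716 CPM in wild type hypoxia against 69.9 to 394 in normoxia (6 at an unadjusted p below 0.05, 1 by DESeq2). In β-arrestin 1 -/- they ran from 227 to 1981 against 665 to 1935, and in the labelled libraries from 1601 to 2802 against 497 to 6335, and 4 of 9 were higher in labelled than in wild type normoxia. Airway markers were called at 2 of 6 in wild type hypoxia, both higher (1 without replicate 2; median 2.95, sums of 1687 to 2308 CPM against 892 to 1179.5), and at 0 of 6 in β-arrestin 1 -/- (906 to 2051 against 962 to 2135; 0 at an unadjusted p below 0.05 and 0 by DESeq2). In the labelled libraries 2 of 6 fell with hypoxia (2206 to 2923 against 1859 to 5678), and 5 of 6 were higher in labelled than in wild type normoxia (median 3.02). Smooth muscle and fibroblast markers fell at 5 of 10 in labelled hypoxia (2326 to 2741 CPM against 3133 to 4549) and were higher at 4 of 10 in labelled than in wild type normoxia, with 0 of 10 called by edgeR in wild type hypoxia (2776 to 3284 against 2375 to 2679; 4 at an unadjusted p below 0.05 and 2 by DESeq2) and in β-arrestin 1 -/- (2253 to 2949 against 2657 to 2879; 2 and 0). Endothelial markers, at 4523 to 6903 CPM over all libraries, rose at 3 of 8 by the mean effect. Against wild type, 2 of 8 (Vwf and Pecam1) were lower in labelled normoxia, with sums of 4523 to 5676 CPM against 6045 to 6721. In hypoxia 1 of 8, Vwf, was lower in β-arrestin 1 -/- than in wild type. Of all genes, 5.49% and 0.117% were lower in these comparisons. Over all genes 2.85% were called higher in wild type hypoxia and 10.8% lower in labelled hypoxia by edgeR. In labelled against wild type normoxia 4% were higher, and by the mean effect 10.4% were. The part of the listed markers in the changes of the immediate early genes was not tested.

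In the authors' deposited table of comparisons more members were called. It listed 21 members as higher and 0 as lower with hypoxia in wild type (8.98% of all genes it tested were called), 15 and 2 in β-arrestin 1 -/- (7.8%) and 12 and 4 in the labelled libraries (18.2%). All 10 and all 3 members called here in wild type and β-arrestin 1 -/- were also called there in the same direction, as were 10 of 12 in the labelled libraries. Between labelled and wild type lung in hypoxia the authors' deposited table had 3 members higher and 13 lower (5.28% of its genes), where the present fit called Klf2 alone. In normoxia that table had 12 higher and 1 lower (14.6%), where the present fit called 3. For β-arrestin 1 -/- against wild type lung it had 6 higher and 1 lower in normoxia (4.33%), where the present fit called 0. In hypoxia it had 1 higher and 7 lower (4.51%), where the present fit called 1.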

How the data were processed

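RNA of whole fresh frozen lung was sequenced as poly(A)-selected libraries from an unstranded kit. Per the submitters' processing notes, FastQC, TopHat and Cuffdiff were used with mm10, with no version stated. Deposited per gene and library were the authors' estimated counts (fragments) and FPKM, beside a table of comparisons with log2 fold changes, test scores and p-values and q-values. Of 23356 features 5 marked HIDATA were dropped and 20 marked FAIL stayed in. Estimated counts, of which 93.3% were whole, were rounded, filtered with filterByExpr (15388 genes), TMM-scaled and tested in 1 edgeR 4.0.16 quasi-likelihood fit of the 6 groups of 3 libraries (R 4.3.3), with Benjamini-Hochberg adjustment over all tested genes and a threshold of 0.05. CPM were TMM-scaled. Recovery of changed genes was tested on simulated data. Alternatives were DESeq2 1.42.0, DESeq2 size factors in edgeR, no low-count filter, limma 3.58.1 on log2(FPKM + 1) or log2(FPKM + 0.1) with or without an FPKM minimum of 1, a replicate block, only the groups compared, and each library left out. The members and lists were chosen with earlier results of these data known. Values in every library are given for members called in at least 1 comparison and for the first member of each role group, and for other lists at most the 3 called genes with the smallest p.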

Additional observations from a re-analysis of the deposited data

Results flagged for a closer look

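The hypoxia response of 2 members differed between the labelled β-arrestin 2 -/- and the wild type libraries by the interaction test. For Egr3 the difference was -2.74 on the log2 scale (edgeR adjusted p 0.0477), with responses of 2.77 in wild type and 0.04 in the labelled libraries. For Gadd45g it was -1.38 (edgeR adjusted p 0.0267), with responses of 0.65 and -0.73. These are 5.71% of the members, against 6.05% of all genes, so the share was near the background. Without wild type hypoxia replicate 2 neither was called. Egr3 lost its call in 10 of 12 fits without 1 library and in 6 of 8 other settings, and Gadd45g in 6 of 12 and in 0 of 8.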

How the results depend on the processing

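No called member changed sign under any alternative (52 calls). Members called in wild type hypoxia numbered 10, and 17 by DESeq2, 3, 4 and 1 by limma on log2(FPKM + 1), log2(FPKM + 0.1) and log2(FPKM + 1) without a minimum, 6 with the replicate block and 3 with only the groups compared. Over all genes the same limma settings called 582, 597 and 578, against 733 in the main fit. The replicate block called 656 of all genes and only the groups compared 495, so the members lost a larger part of their calls than all genes did. DESeq2 called 9 in β-arrestin 1 -/- hypoxia, 5 and 3 between labelled and wild type lung in normoxia and hypoxia, and 6 in the labelled interaction. That interaction gave 1 with no filter, with each of the 3 limma settings, with the replicate block and with only the groups compared. Over all genes it gave 712 with no filter, 841, 834 and 690 by limma and 820 with the block, against 931. With only the groups compared, β-arrestin 1 -/- against wild type gave 0 in hypoxia and labelled against wild type 8 in normoxia, where limma without a minimum gave 1. That limma setting called 1163 of all genes there, against 1460 in the main fit. The mean effect gave 20, and 15 to 22 in 7 other settings, in which Egr2 was lost in 3, Egr3 in 2, Atf3 in 4, Dusp5 in 1 and Klf10 in 5. Of all genes, 2656 to 3560 were called in these 7 settings, against 2980. The causes were not tested. Leaving out 1 library gave 0 to 15 in wild type hypoxia, 0 to 5 in β-arrestin 1 -/- hypoxia, 3 to 6 in labelled hypoxia, 0 and 0 to 1 for β-arrestin 1 -/- against wild type in normoxia and hypoxia, 0 to 2 for labelled against wild type in both, 0 and 0 to 8 for the β-arrestin 1 -/- and labelled interactions, and 15 to 20 for the mean effect. Over all genes, DESeq2 called 1270 rather than 733 in wild type hypoxia and 833 rather than 454 in β-arrestin 1 -/- hypoxia (47 with only the groups compared), 176 rather than 34 and 150 rather than 31 for β-arrestin 1 -/- against wild type in normoxia and hypoxia (109 and 12 with only the groups compared), 2730 rather than 1460 and 476 rather than 142 for labelled against wild type (2638 and 84), 1865 rather than 931 in the labelled interaction (1540), and 9 rather than 0 in the other (1, and 2 by limma without a minimum). Leaving out 1 library gave over all genes 209 to 943, 133 to 491 and 1710 to 3107 in wild type, β-arrestin 1 -/- and labelled hypoxia, 15 to 30 and 20 to 34 for β-arrestin 1 -/- and 316 to 1922 and 52 to 298 for labelled against wild type in normoxia and hypoxia, 313 to 2022 in the labelled interaction and 2387 to 4554 for the mean effect. Same-numbered libraries of different groups did not deviate together throughout (14 of 45 correlations over 0.1, from -0.463 to 0.47, own number best in 31 of 90). The main fit did not pair libraries by number, and this check cannot exclude that some were handled together. Egr4 and Fosl1 had at most 11 and 24 fragments in a library.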
